A study of Homo sapiens with 60 samples.

Results

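Ribosome biogenesis factors, the proteins that transcribe, cut, modify and fold ribosomal RNA and assemble it into subunits, were followed as 48 named genes of the 60675 gene identifiers in the deposited table. The genes were taken by symbol from a list of factors. No measured value served as a rule, but the list was chosen with earlier results of these data known. All 48 were matched by symbol, and all 48 passed the filter on low counts in a model of 17268 genes. They were read across A549, an established human lung carcinoma line, after 24 h with a hot-water extract or vehicle.

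The extracts were 4 single herbs and 3 herb mixtures of Korean medicine, each at a low, a medium and a high dose. The single herbs Citri Unshius Pericarpium, Cimicifugae Rhizoma and Bupleuri Radix and the mixtures Yijung-tang, Banhasasim-tang and Bojungikgi-tang were given at 20, 100 and 500 µg/mL. Aconiti Lateralis Radix Preparata, processed aconite root, was given at 14.4, 72 and 360 µg/mL. Each dose had 3 libraries, except Bojungikgi-tang with 1 per dose, and 3 vehicle libraries served all extracts. Every group was the same unmodified line. Vehicle was DMSO, labelled 0.1% on the samples and 2% in the series text, and the DMSO content of the extract samples was not given. Vehicle and all extract samples carried the same label, Second_BatchB, in their titles. Within it Citri and Cimicifugae shared set number 5, Bupleuri and Aconiti set 6, Yijung and Banhasasim set 7, Bojungikgi had set 8, and vehicle carried a set label of its own. Against vehicle, set and extract therefore cannot be told apart, whereas doses within an extract share a set. Whether the 3 replicates of a group came from separate dishes was not given, and the p-values below reflect variation among these libraries, part of which may be technical.

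Ribosomes are built mainly in the nucleolus, where RNA polymerase I makes a long precursor that snoRNA-guided complexes modify and the small-subunit processome folds and cuts. Pre-40S and pre-60S particles then mature on separate routes to the cytoplasm. Growing and cancer cells carry high levels of these factors, and many of their promoters hold the E-box CACGTG, the motif read by MYC and its relatives.

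Promoters of 6 of these genes are shown because they held CACGTG and had the largest absolute log2 fold with Aconiti high dose among members that did. The sequences come from RefSeq on GRCh38.p14, are written 5′ to 3′ on the gene's strand, and have CACGTG in capitals. Each is a window of 100 bases, from 70 bases before to 30 after the annotated start, except EBNA1BP2, whose window runs from 250 to 151 bases before it. UTP20 lies at chr12:101280035-101280134 (+), RRP9 at chr3:51941875-51941974 (-) and WDR43 at chr2:28894597-28894696 (+). NOP10 lies at chr15:34343107-34343206 (-), EBNA1BP2 at chr1:43172721-43172820 (-) and IMP4 at chr2:130342827-130342926 (+).
UTP20: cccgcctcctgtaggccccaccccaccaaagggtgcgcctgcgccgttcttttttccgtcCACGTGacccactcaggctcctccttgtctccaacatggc
RRP9: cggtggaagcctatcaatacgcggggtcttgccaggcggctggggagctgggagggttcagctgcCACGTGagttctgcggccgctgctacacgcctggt
WDR43: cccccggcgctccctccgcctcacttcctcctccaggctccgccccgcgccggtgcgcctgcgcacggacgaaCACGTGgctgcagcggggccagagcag
NOP10: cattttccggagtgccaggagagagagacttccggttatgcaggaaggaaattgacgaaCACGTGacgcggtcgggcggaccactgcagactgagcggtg
EBNA1BP2: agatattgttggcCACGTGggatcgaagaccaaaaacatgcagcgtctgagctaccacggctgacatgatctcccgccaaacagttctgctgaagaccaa
IMP4: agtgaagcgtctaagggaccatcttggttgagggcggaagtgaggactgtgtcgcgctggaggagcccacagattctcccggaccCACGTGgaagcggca

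CACGTG, which reads the same on both strands, was searched in the 300 bases from 250 before to 50 after each RefSeq start. It was found in 17 of the 41 members with a promoter entry, or 41.5%, against 1450 of 11781 tested genes with an entry, or 12.3%. Other small-subunit factors held it in 14 of 35 (40%), other 60S factors in 12 of 39 (30.8%) and cytosolic ribosomal proteins in 4 of 63 (6.35%). It stood in 5 of the 15 members with an entry that were called higher with Yijung medium dose (33.3%) and in 12 of the 26 that were not called (46.2%). These matches describe letters and show no binding. Of the genes printed above, UTP20 was called lower with Aconiti high dose, WDR43 lower with Aconiti high and higher with Yijung medium dose, and IMP4 higher with Aconiti high dose.

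Members differed widely in level. In vehicle, per kilobase of exonic length, the histone chaperone and nucleolar scaffold NPM1 stood at 458 ± 8.2 CPM per kb (SD, n = 3), the highest of the 48. CPM, the level unit used here, is a count divided by the library's TMM-adjusted size. NOP10, a small box H/ACA protein, followed at 231 ± 14.9, nucleolin (NCL) at 186 ± 5.82 and the 2′-O-methyltransferase fibrillarin (FBL) at 159 ± 5.98 CPM per kb. The ranges of NPM1 (453 to 468), NOP10 (219 to 248), NCL (181 to 192) and FBL (156 to 166) did not overlap. At the low end, the helicase DDX10 had 5.50 ± 0.161 and the polymerase subunit POLR1C 5.67 ± 0.297 CPM per kb, and their ranges of 5.35 to 5.67 and 5.47 to 6.01 did overlap. NPM1 has 45 genes named as its pseudogenes in GENCODE 29, and PPAN overlaps the readthrough gene PPAN-P2RY11 on its strand, so the values of both are uncertain.

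Libraries held 17793654 to 30188210 counts with a median of 25758911. The long against short transcript balance of a library, the mean log2 CPM of genes over 6000 bp minus that of genes under 1500 bp, was 0.690 to 0.892 in vehicle, but -0.375 in Citri medium replicate 1 and 0.236 to 0.804 in Aconiti high dose. Mitochondrially encoded genes took 17.5% ± 1.31 of counts in Aconiti high dose and 8.30% ± 0.342 in vehicle (SD, n = 3 each). Epithelial and A549 markers differed in level, with medians over the libraries of 6352 CPM for ALDH1A1, 3569 for KRT8, 2930 for AKR1B10 and 2771 for KRT18. TXNRD1 followed at 1975, NQO1 at 1663 and AKR1C1 at 342 CPM, and KRT19 was the lowest at 24.6 CPM. Among the 7 markers of other cells, CD3E was at 0 in every library, PTPRC, PECAM1, CDH5 and DCN did not exceed 0.265 CPM, and CD68 and COL1A1 had medians of 6.21 and 32.8 CPM.

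**Figure D1:**
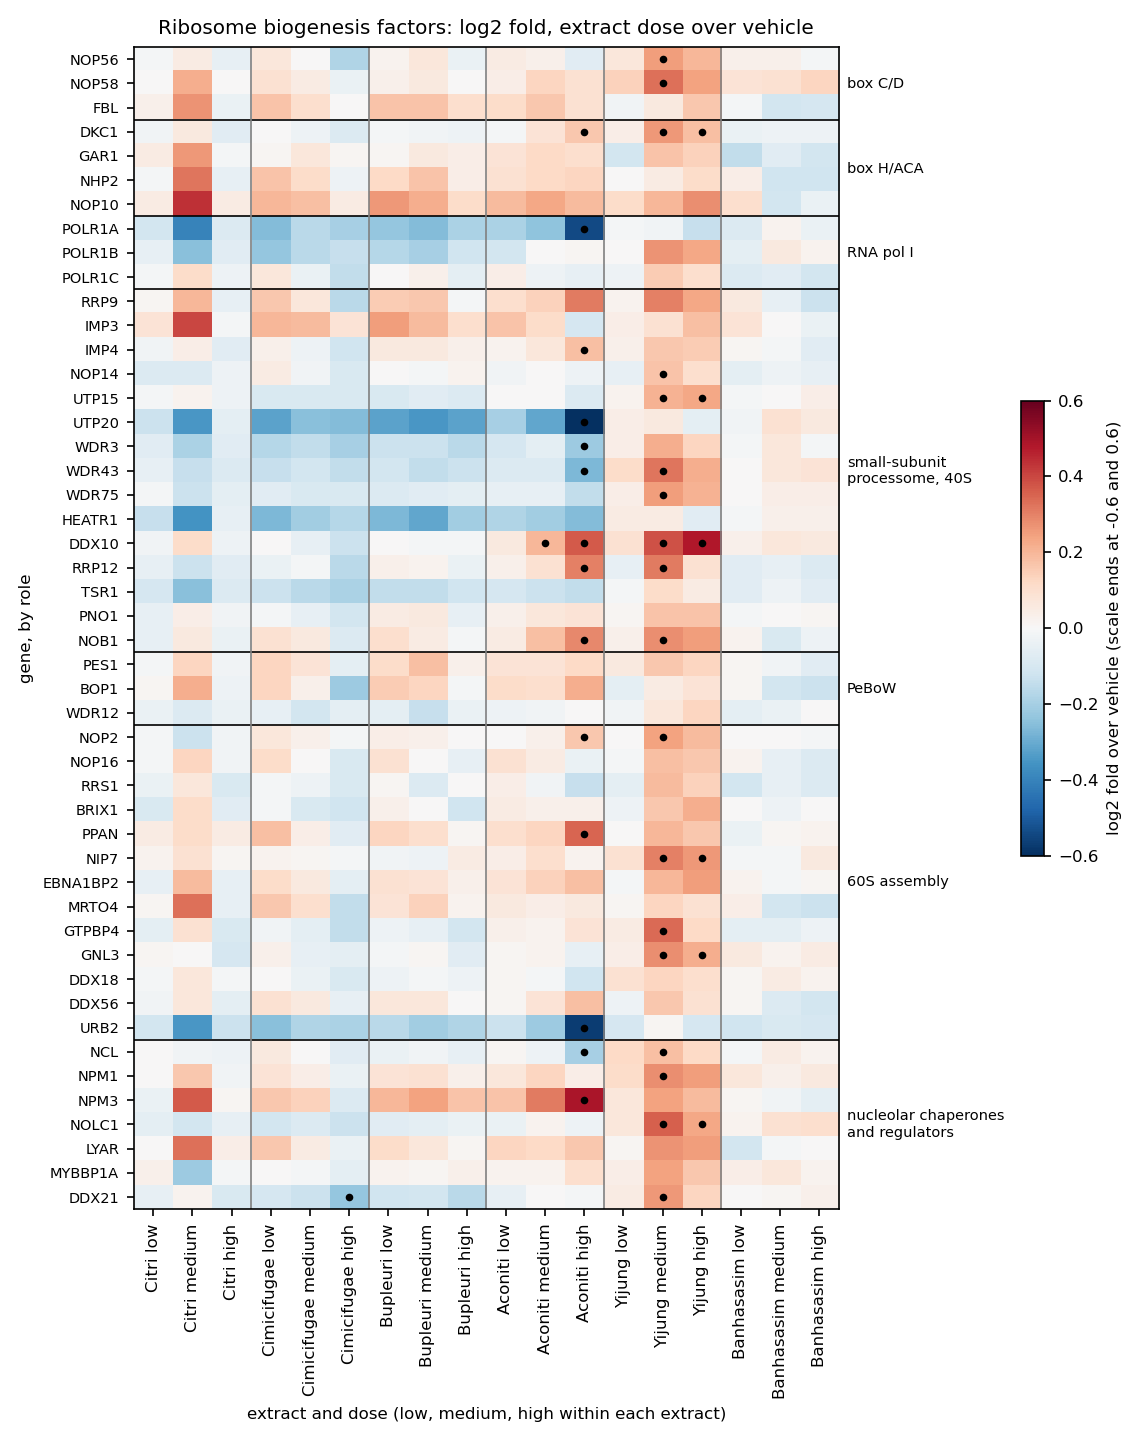
Map of log2 fold over vehicle for the 48 genes (rows, by role) in 18 extract and dose groups of 3 libraries (columns); red is higher and blue lower than vehicle, and a dot marks an adjusted p under 0.05. The Yijung medium and high columns are nearly all red, and the Aconiti high column is mixed, with UTP20 (-0.64), URB2 (-0.57) and POLR1A (-0.54) as the deepest blue and NPM3 (0.49) as the deepest red.

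The broadest change in ribosome biogenesis factors came with Yijung medium dose, 100 µg/mL. There 18 of 48 genes were higher than in vehicle and none lower by edgeR's quasi-likelihood test (adjusted p under 0.05 over all genes). This was 37.5% of the list, where 7.85% of all 17268 genes were called and 4.01% were called higher. Of the 48 log2 folds 47 lay above 0, with a median of 0.201, against a median of 0 over all genes. The largest rises were in the processome helicase DDX10, the snoRNP chaperone NOLC1 and the GTPase GTPBP4, at 1.3-, 1.29- and 1.27-fold. In bulk RNA, a change in the number of cells of a kind and a change in RNA per cell cannot be told apart. Together the 48 genes took 1.03% ± 0.0231 of all counts in Yijung medium dose and 0.905% ± 0.00871 in vehicle (SD, n = 3 each).

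Among the snoRNP proteins, NOP58, a core protein of the box C/D complexes that guide ribose methylation, had 197, 194 and 184 CPM with Yijung medium dose, against 152, 156 and 149 CPM in vehicle. All 3 treated libraries were above all 3 vehicle libraries, and the log2 fold was 0.33 (SE 0.08, adjusted p = 0.0069 by edgeR). Its partner NOP56 was also called, at 0.25 (SE 0.07, adjusted p = 0.0135), whereas the methyltransferase of the same complex, FBL, was at 0.06 (SE 0.13, adjusted p = 0.87). In the box H/ACA complex, which guides pseudouridylation, the enzyme DKC1 averaged 228 ± 8.19 CPM with Yijung medium dose and 191 ± 3.50 CPM in vehicle (SD, n = 3 each), a log2 fold of 0.26 (SE 0.05, adjusted p = 0.000122 by edgeR). Its partners GAR1, NHP2 and NOP10 were not called, with log2 folds of 0.17, 0.05 and 0.20.

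In the small-subunit group, 7 of 15 genes rose. DDX10 had 65.2, 62.7 and 58.2 CPM with Yijung medium dose and 46.3, 49.0 and 47.4 CPM in vehicle. The groups did not overlap, and the log2 fold was 0.38 (SE 0.05, adjusted p = 4.98e-07 by edgeR). WDR43, a scaffold of the early transcription-coupled UTP complex, rose by 0.32 (SE 0.08, adjusted p = 0.00536) and RRP12, which acts in pre-40S maturation and export, by 0.31 (SE 0.07, adjusted p = 0.00462). The other called genes of this group were the 18S rRNA endonuclease NOB1, the early scaffold proteins WDR75 and UTP15, and NOP14, with log2 folds from 0.17 to 0.28. The uncalled members included the large HEAT-repeat scaffolds UTP20 and HEATR1 at 0.06 and 0.05, each with an SE of 0.20 or 0.19.

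On the 60S route, 4 of 13 genes rose. GTPBP4, a GTPase of nuclear pre-60S particles, had 192, 192 and 181 CPM with Yijung medium dose and 148, 148 and 151 CPM in vehicle, with no overlap and a log2 fold of 0.34 (SE 0.05, adjusted p = 2e-06 by edgeR). NIP7, another pre-60S factor, and GNL3, the nucleolar GTPase nucleostemin, rose by 0.30 and 0.28, and the rRNA methyltransferase NOP2 by 0.24. None of the PeBoW complex, which joins PES1, BOP1 and WDR12 in pre-60S processing, was called, with log2 folds of 0.16, 0.05 and 0.07. Nor was any RNA polymerase I subunit, with POLR1A at -0.02, POLR1B at 0.27 and POLR1C at 0.15.

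Of the nucleolar chaperones and regulators 4 of 7 rose. NOLC1 had 378, 366 and 366 CPM with Yijung medium dose, against 298, 285 and 280 CPM in vehicle, without overlap (log2 fold 0.36, SE 0.06, adjusted p = 2.21e-05 by edgeR). NPM1 and the helicase DDX21, which acts in rRNA transcription and processing, rose by 0.28 and 0.26, and NCL by 0.18. The remaining NPM3, LYAR and MYBBP1A had log2 folds of 0.24 to 0.27 and were not called.

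Libraries were left out singly from the 2 groups compared, as was Citri medium replicate 1. Of the 18 calls, 10 held whichever of these was left out: DDX10, DDX21, DKC1, GNL3, GTPBP4, NIP7, NOLC1, NOP2, NOP58 and WDR43. The number called ran from 12 without Yijung medium replicate 1 to 23 without Citri medium replicate 1. NOP56, NOP14, RRP12, NOB1, NPM1 and WDR75 lost their call without Yijung medium replicate 1 (adjusted p 0.097, 0.124, 0.109, 0.251, 0.135 and 0.0797). UTP15, WDR75, NOB1, NCL and NPM1 lost it without Yijung medium replicate 2 (0.0643, 0.0914, 0.0677, 0.064 and 0.0508), and NCL without Yijung medium replicate 3 (0.0538). Among vehicle libraries, NOP56, WDR75, NOB1 and NPM1 depended on replicate 1, NOP14, WDR75, NOB1, NCL and NPM1 on replicate 2, and UTP15, WDR75 and NCL on replicate 3 (0.052 to 0.21). Transcript balance was 0.469 in Yijung medium replicate 1, below the vehicle range, and 0.795 and 0.899 in replicates 2 and 3. The median over the 48 genes of log2 CPM minus the vehicle mean was 0.283 in replicate 1 and 0.193 and 0.122 in replicates 2 and 3, each above the vehicle range of -0.013 to 0.016. With the balance as a covariate, 31 members were called, all higher, and with no filter on low counts 9 were. Shares over all genes in such alternative fits are not given here, so these counts have no background beside them.

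**Figure D2:**
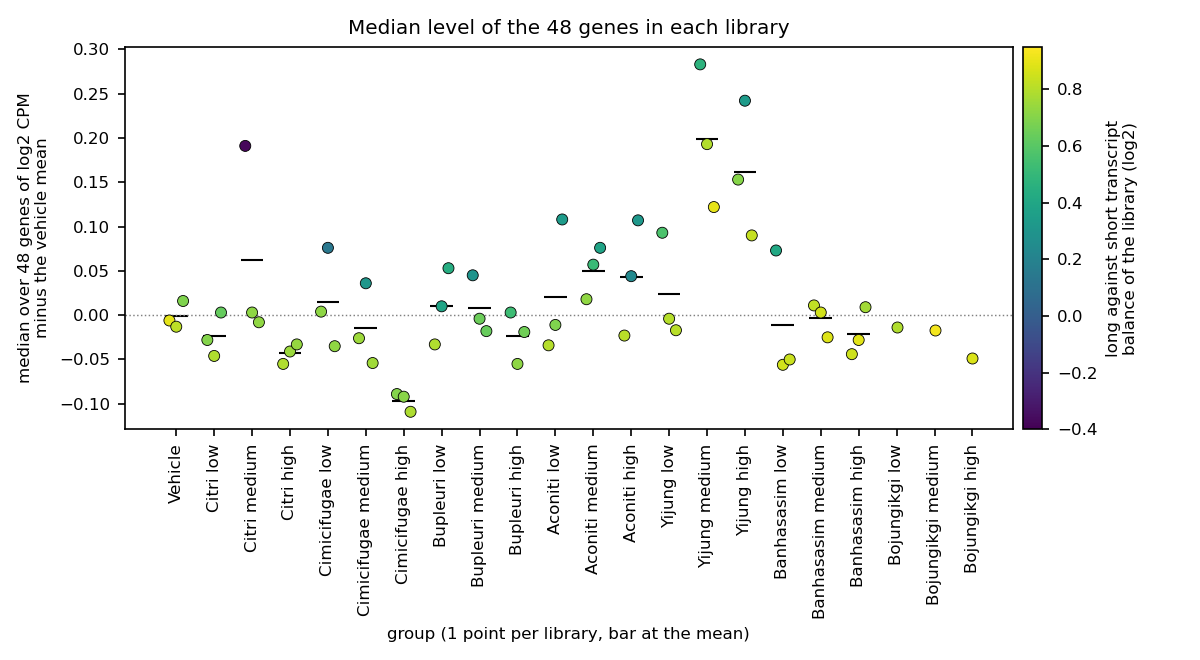
Median over the 48 genes of log2 CPM minus the vehicle mean (y axis) in every library, by group (x axis), with a bar at the mean of each group of 3; colour is the long against short transcript balance of the library. Yijung medium (0.122 to 0.283) and Yijung high (0.090 to 0.242) lie above vehicle (-0.013 to 0.016), Cimicifugae high (-0.109 to -0.089) lies below it, and the dark point is Citri medium replicate 1 (0.191).

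Within an extract both groups carry 1 set number. Yijung medium against Yijung low dose, a comparison added after the counts were seen, gave 12 higher and 0 lower of 48 (25%), where 6.31% of all genes were called. The median log2 fold was 0.190. The largest were RRP12 at 0.36 (SE 0.07, adjusted p = 0.000932 by edgeR), GTPBP4 at 0.30 (SE 0.05, adjusted p = 3.32e-05), and DDX10 and NOLC1 at 0.29 each. The rest were DKC1, NOP14, UTP15, NOP2, RRS1, NIP7, GNL3 and DDX21, from 0.19 to 0.25. Without Yijung low replicate 2 the count was 6, and NOP14 (0.0528), UTP15 (0.0651), NOP2 (0.0543), RRS1 (0.0622), NIP7 (0.0866) and DDX21 (0.101) missed the threshold. UTP15, RRS1, NIP7 and DDX21 also did so without other single libraries of these 2 groups (0.0525 to 0.175). A fit of the 6 samples alone called 1 and the fit with no filter 4.

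Yijung medium against Banhasasim medium dose, 2 mixtures at 100 µg/mL in the same set and likewise added later, gave 15 higher and 0 lower (31.2%), where 7.04% of all genes were called. GTPBP4 led with 192, 192 and 181 CPM in Yijung medium and 142, 145 and 142 CPM in Banhasasim medium dose (log2 fold 0.40, SE 0.05, adjusted p = 7.86e-08 by edgeR). NOB1 followed at 0.36, RRP12 at 0.35 and DDX10 at 0.32. The remaining 11, from 0.19 to 0.31, were NIP7, DKC1, NOLC1, GNL3, NOP2, WDR43, DDX21, NOP56, RRS1, UTP15 and NOP14. The number called was 10 to 19 over the libraries left out, and 8 with no filter on low counts. NOP56, NOP14, UTP15, WDR43, NOB1, RRS1 and DDX21 each missed the threshold without at least 1 library (0.0532 to 0.22).

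Yijung high dose, 500 µg/mL, had fewer members past the threshold. Here 6 of 48 were higher and 0 lower than in vehicle (12.5%), where 7.09% of all genes were called and 3.76% were called higher. Still 44 of 48 log2 folds lay above 0, with a median of 0.159. DDX10 had 68.2, 65.6 and 65.0 CPM with Yijung high dose, against 46.3, 49.0 and 47.4 CPM in vehicle. The groups were well apart, and its log2 fold of 0.48 (1.39-fold, SE 0.05, adjusted p = 2.95e-09 by edgeR) was the largest rise of any member there.

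The other calls were NIP7 at 0.26 (adjusted p = 0.00278), UTP15 at 0.23 (0.00348), NOLC1 at 0.23 (0.00972), GNL3 at 0.22 (0.00616) and DKC1 at 0.18 (0.0103), all by edgeR. NIP7 had 83.8, 96.1 and 84.1 CPM in Yijung high dose and 74.6, 72.7 and 73.2 CPM in vehicle, without overlap. UTP15, a subunit of the early UTP complex, had 53.6, 54.2 and 54.6 CPM in Yijung high dose, against 47.4, 47.1 and 44.3 CPM in vehicle. Its treated libraries lay within 1 CPM of each other and above every vehicle library.

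Among members that missed the threshold, NPM1 had 2092, 2189 and 1967 CPM in Yijung high dose and 1739, 1735 and 1791 CPM in vehicle, with a log2 fold of 0.25 and an adjusted p of 0.0507 by edgeR. NOP58, with 171, 180 and 189 CPM in Yijung high dose and 152, 156 and 149 CPM in vehicle, was at 0.24 (adjusted p = 0.0805). Neither gene's groups overlapped. Between these 2 lay NOB1 (adjusted p = 0.0572), NOP2 (0.0618), NOP56 (0.0673) and WDR75 (0.0753). Farther from the threshold, LYAR, a nucleolar zinc-finger protein, had 27.5, 33.8 and 30.2 CPM in Yijung high dose and 26.1, 25.2 and 25.9 CPM in vehicle (log2 fold 0.25, adjusted p = 0.254).

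The members with the largest fold in the other role groups also missed the threshold. NOP10 had 157, 173 and 136 CPM in Yijung high dose and 121, 126 and 137 CPM in vehicle, which overlap (log2 fold 0.28, adjusted p = 0.374 by edgeR). POLR1B, a large subunit of RNA polymerase I, had 88.2, 78.0 and 79.2 CPM in Yijung high dose and 69.3, 69.2 and 70.3 CPM in vehicle, without overlap (0.23, adjusted p = 0.233). PES1 had 167, 156 and 141 CPM in Yijung high dose and 140, 138 and 144 CPM in vehicle (0.13, adjusted p = 0.517).

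These calls rested on single libraries more than those of the medium dose did. DDX10 and UTP15 were called whichever library of the groups compared was left out. Without Yijung high replicate 2, whose balance was 0.334, 3 genes were called, and DKC1 (adjusted p 0.22), NIP7 (0.0871) and GNL3 (0.0523) were not. DKC1 also lost its call without Vehicle replicate 2 (0.0659), and NOLC1 without Vehicle replicate 3 (0.0553). Without Yijung high replicate 3 the number was 11, and without Citri medium replicate 1 it was 13. In a fit of the 6 samples alone, and in one with no filter on low counts, DDX10 was the 1 call, DESeq2 called 10, and the balance covariate gave 17.

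Against Yijung low dose, 20 µg/mL, Yijung high dose gave 3 higher and 0 lower (6.25%), where 4.93% of all genes were called. DDX10 had 68.2, 65.6 and 65.0 CPM in Yijung high and 50.1, 53.1 and 48.8 CPM in Yijung low dose (log2 fold 0.39, SE 0.05, adjusted p = 4.73e-07 by edgeR). UTP15 was at 0.21 (adjusted p = 0.0101) and GNL3 at 0.18 (0.0413). The number called was 1 without Yijung low replicate 3, 5 without Yijung high replicate 3 and 9 without Citri medium replicate 1. GNL3 missed the threshold without any 1 of 5 libraries (0.0585 to 0.218) and UTP15 without Yijung low replicate 3 (0.0759).

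Yijung high against Yijung medium dose had 1 member called, where 1.08% of all genes were called. GTPBP4 had 157, 164 and 166 CPM in Yijung high and 192, 192 and 181 CPM in Yijung medium dose, without overlap, and fell by 0.22 on the log2 scale (SE 0.05, adjusted p = 0.0117 by edgeR). The call was lost without Yijung high replicate 1 (0.12), Yijung medium replicate 1 (0.0629) or Yijung medium replicate 2 (0.0933). Across 20, 100 and 500 µg/mL the gene thus stood highest at the middle dose, while DDX10 and UTP15 were at similar levels at the medium and high doses.

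Yijung high against Banhasasim high dose gave 7 higher and 0 lower (14.6%), where 4.79% of all genes were called. They were DDX10 at 0.42 (SE 0.05, adjusted p = 1.06e-07 by edgeR), NOB1 at 0.29, IMP4 and RRS1 at 0.22, DKC1 at 0.21, NIP7 at 0.20 and UTP15 at 0.19, with adjusted p from 0.00326 to 0.0449 for the last 6. Except for DDX10, each lost its call without Yijung high replicate 2 (adjusted p 0.127 to 0.504), when 1 gene was left. The number was 4 without Yijung high replicate 1, 3 without Banhasasim high replicate 1, 2 without Banhasasim high replicate 2, and 3 in a fit without Aconiti high and medium doses.

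Yijung low dose had 0 of 48 members called by edgeR and by DESeq2, where 0.0116% of all genes were called by edgeR. At an unadjusted p under 0.05 there was 1 member, without a share of all genes at that threshold. Its median log2 fold was 0.024.

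**Figure D3:**
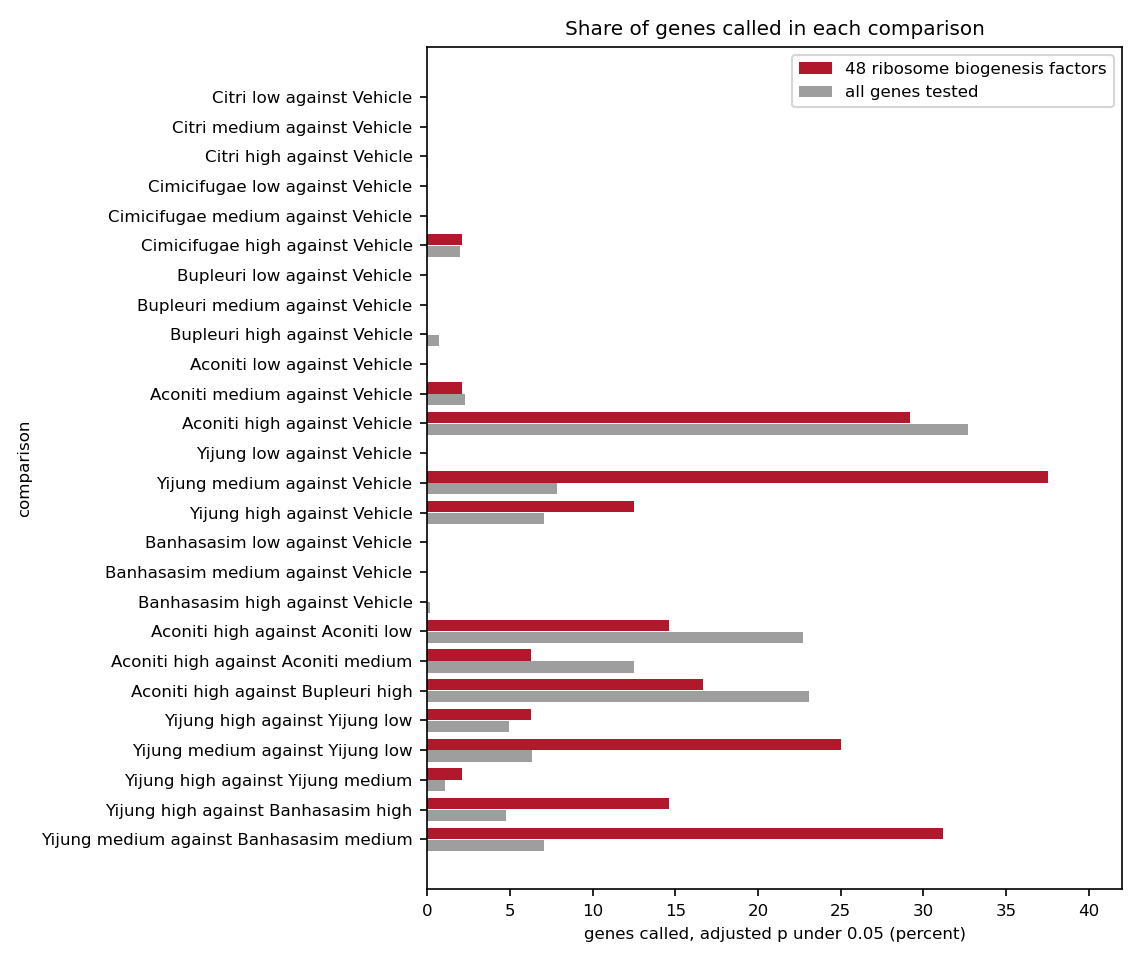
Percent of genes with an adjusted p under 0.05 (x axis) among the 48 ribosome biogenesis factors (red) and among all 17268 genes tested (grey), by comparison (y axis). The red bar is longer than the grey one for Yijung medium against vehicle (37.5 against 7.85%) and shorter for Aconiti high against vehicle (29.2 against 32.7%).

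Aconiti high dose, 360 µg/mL, moved ribosome biogenesis factors in both directions. Of 48 genes 8 were higher and 6 lower than in vehicle by edgeR. At 29.2%, the share called was close to the 32.7% of all genes, with 17.0% higher and 15.7% lower. The median log2 fold was 0.038 against -0.005 over all genes, and it was -0.042 with the transcript balance as a covariate. The genes that rose included NPM3, DDX10, PPAN, RRP12 and NOB1, and those that fell included UTP20, URB2 and POLR1A. As a share of all counts the 48 genes took 0.806% ± 0.0189 with Aconiti high dose and 0.905% ± 0.00871 in vehicle (SD, n = 3 each), beside the rise in mitochondrial counts given above, whose part in that share was not tested. With mitochondrial genes removed before scaling, 13 of the 14 calls were made.

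Starting with transcription, POLR1A, the largest subunit of RNA polymerase I, had 191, 145 and 128 CPM with Aconiti high dose, against 245, 229 and 202 CPM in vehicle. No treated library reached the lowest vehicle library, and the log2 fold was -0.54 (SE 0.19, adjusted p = 0.0252 by edgeR). POLR1B and POLR1C were at 0.01 and -0.05 and were not called. POLR1A lost its call without Vehicle replicate 1 (0.0954), Vehicle replicate 2 (0.0621), Aconiti high replicate 2 (0.106) or Aconiti high replicate 3 (0.167).

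Small-subunit factors split within the group, with 4 of 15 higher and 3 lower. UTP20 had 120, 75.0 and 77.5 CPM in Aconiti high dose and 149, 146 and 128 CPM in vehicle, without overlap. Its log2 fold of -0.64 (SE 0.20, adjusted p = 0.0133 by edgeR) was the lowest of the 48. WDR43 and WDR3, scaffold proteins of 2 early UTP complexes, fell by 0.27 (adjusted p = 0.00833) and 0.22 (0.0499).

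In the same group DDX10 had 61.3, 57.6 and 64.9 CPM in Aconiti high dose and 46.3, 49.0 and 47.4 CPM in vehicle. That rise of 0.37 (SE 0.05, adjusted p = 3.16e-07 by edgeR) was 1.29-fold and without overlap. RRP12 was at 0.30 (adjusted p = 0.0016), NOB1 at 0.29 (0.00637) and the U3-associated protein IMP4 at 0.18 (0.0355).

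Among snoRNP proteins DKC1 was the 1 call, at 213, 207 and 217 CPM in Aconiti high dose and 194, 187 and 192 CPM in vehicle (log2 fold 0.16, SE 0.05, adjusted p = 0.00903 by edgeR). The groups did not overlap. NOP10 had 120, 153 and 165 CPM in Aconiti high dose and 121, 126 and 137 CPM in vehicle (0.19, adjusted p = 0.403). FBL had 318, 377 and 414 CPM in Aconiti high dose and 339, 340 and 362 CPM in vehicle (0.09, adjusted p = 0.628). In both, Aconiti high replicate 1 lay below every vehicle library and the other two above every one.

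On the 60S route PPAN, a pre-60S factor, and NOP2 were higher, at 0.35 (adjusted p = 0.00687 by edgeR) and 0.16 (0.0457). URB2, the relative of a yeast pre-60S factor, had 34.2, 33.7 and 29.3 CPM in Aconiti high dose and 50.3, 46.5 and 47.3 CPM in vehicle. This fall, far outside the spread of either group, was -0.57 on the log2 scale (SE 0.11, adjusted p = 0.000122 by edgeR). BOP1 of the PeBoW complex had 186, 277 and 222 CPM in Aconiti high dose and 200, 189 and 200 CPM in vehicle, which overlap (0.22, adjusted p = 0.202).

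Of the nucleolar chaperones NPM3, a relative of NPM1, had 48.5, 74.1 and 64.4 CPM in Aconiti high dose, against 42.6, 44.2 and 46.0 CPM in vehicle. The groups did not overlap, replicate 1 was nearest to vehicle, and the log2 fold was 0.49 (SE 0.15, adjusted p = 0.00871 by edgeR), the highest of the 48. NCL had 1201, 1040 and 1127 CPM in Aconiti high dose and 1331, 1274 and 1252 CPM in vehicle (-0.20, SE 0.05, adjusted p = 0.0021). NPM1, NOLC1, MYBBP1A, DDX21 and LYAR were not called, from -0.03 to 0.16.

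DDX10, DKC1, NOB1, RRP12 and URB2 were called whichever library of the groups compared was left out. Without Aconiti high replicate 2, whose balance was 0.236, these 5 were the calls that remained of 14. UTP20 (0.109), WDR43 (0.147), WDR3 (0.374), NCL (0.081), NPM3 (0.0971), PPAN (0.0837), IMP4 (0.183) and NOP2 (0.0989) then missed the threshold. UTP20 also did without Aconiti high replicate 3 (0.0952), and IMP4, WDR3 and NOP2 without any 1 of the vehicle libraries (0.0642 to 0.128). A fit of the 6 samples alone called 8.

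Length moved with these folds. The 8 genes called higher had a median exonic length of 4032 bp and the 6 called lower one of 8477 bp, and across the 48 genes, which are not independent and share their libraries, Spearman's rho of length with log2 fold was -0.49. The 14 members over 6000 bp had a median log2 fold of -0.10 and the 14 under 3000 bp one of 0.11. With the transcript balance as a covariate, log2 folds were -0.29 for UTP20 (adjusted p = 2.76e-05 by edgeR), -0.21 for POLR1A (0.0122), -0.39 for URB2 (4.08e-06) and 0.22 for NPM3 (0.000655), all smaller in size and all still called. IMP4 (0.08, adjusted p = 0.115) and WDR3 (-0.11, 0.171) were not called in that fit. WDR43 was at -0.15, NOB1 at 0.16 and PPAN at 0.20, still called. DDX10, at 8653 bp one of the longer members, was at 0.32 (7.29e-08). For Yijung medium dose rho was -0.07, and medians were 0.19 over 6000 bp and 0.18 under 3000 bp. For Yijung high dose rho was -0.38.

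**Figure D4:**
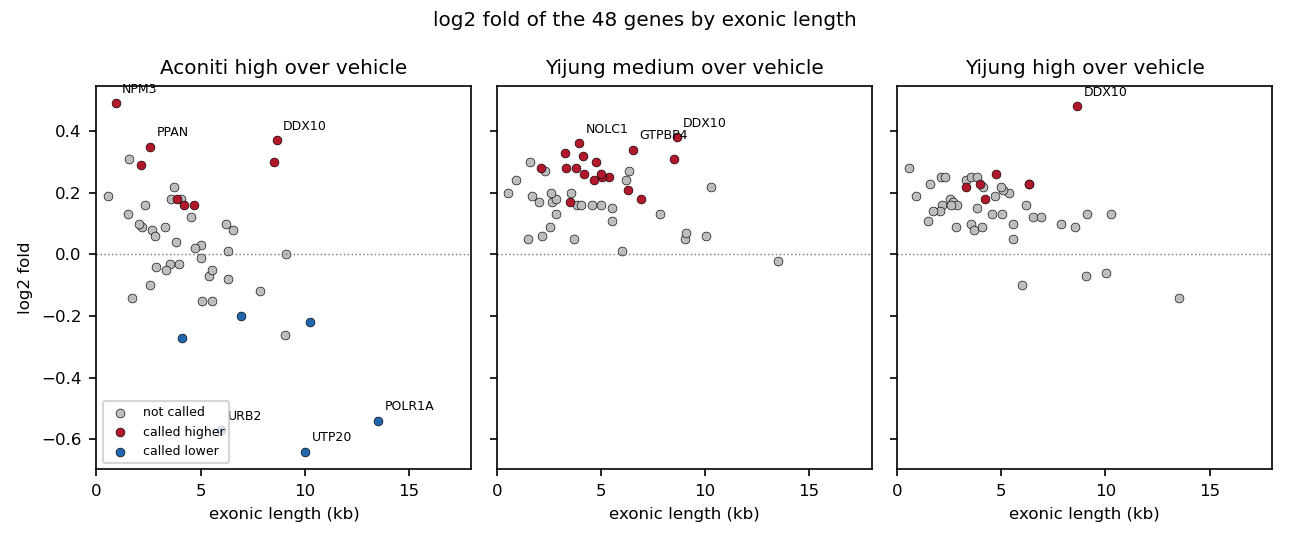
Log2 fold over vehicle (y axis) against exonic length in kb (x axis) for the 48 genes, 1 point each, in Aconiti high, Yijung medium and Yijung high dose; red and blue points were called higher and lower. Aconiti high dose spreads downward with length (Spearman's rho -0.49), with DDX10 (0.37) as a long gene above 0, while Yijung medium dose shows no such slope (rho -0.07).

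Within the Aconiti set, high against low dose (14.4 µg/mL) gave 4 higher and 3 lower (14.6%), where 22.7% of all genes were called. DDX10 had 61.3, 57.6 and 64.9 CPM in Aconiti high and 48.6, 48.9 and 50.8 CPM in Aconiti low dose (log2 fold 0.31, SE 0.05, adjusted p = 9.72e-06 by edgeR). RRP12 was at 0.27 (adjusted p = 0.00596), NOB1 at 0.24 (0.0312) and DKC1 at 0.16 (0.00781). URB2 was at -0.44 (0.00377), NCL at -0.20 (0.00225) and RRS1, which helps to load the 5S RNP, at -0.18 (0.0413).

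DDX10 was the 1 gene of these called whichever library of the groups compared was left out. The count was 3 without Aconiti high replicate 2, 4 without Aconiti high replicate 3, 12 without Aconiti high replicate 1 and 11 without Citri medium replicate 1. NOB1 and RRS1, whose groups overlapped, lost their call without any 1 of 4 (0.0678 to 0.141) and 5 libraries (0.0913 to 0.369). DKC1 did without Aconiti low replicate 1 (0.0646), RRP12 (0.0675) and NCL (0.0935) without Aconiti high replicate 2, NCL without Aconiti low replicate 3 (0.0529), and URB2 without Aconiti high replicate 3 (0.0522). A fit of the 6 samples alone called 2.

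Aconiti high against Aconiti medium dose (72 µg/mL) gave 1 higher and 2 lower (6.25%), where 12.5% of all genes were called. DDX10 was at 0.17 (adjusted p = 0.0263 by edgeR), URB2 at -0.35 (0.035) and NCL at -0.16 (0.0238), and each of the 3 missed the threshold without 1 library or another. The count was 1 without any of Aconiti high replicates 2 and 3 and Aconiti medium replicates 1 and 2, 6 without Aconiti high replicate 1 and 5 without Citri medium replicate 1.

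Aconiti medium against vehicle had 1 call, DDX10 at 53.9, 54.9 and 55.1 CPM in Aconiti medium dose and 46.3, 49.0 and 47.4 CPM in vehicle (log2 fold 0.20, SE 0.05, adjusted p = 0.0236 by edgeR), where 2.29% of all genes were called, 1.64% higher and 0.654% lower. Although the groups did not overlap, the call was lost without any of 5 of the 6 libraries, all but Vehicle replicate 2 (0.0722 to 0.156). Aconiti low dose had 0 calls by edgeR and by DESeq2, and 0 at an unadjusted p under 0.05, where 0.0695% of all genes were called. Over vehicle and the low, medium and high Aconiti doses, DDX10 averaged 47.6, 49.4, 54.6 and 61.3 CPM. URB2 averaged 48.04, 43.8, 41.3 and 32.4 CPM over the same series.

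Aconiti high against Bupleuri high dose, in the same set but at 360 against 500 µg/mL, gave 6 higher and 2 lower (16.7%), where 23.1% of all genes were called. DDX10 was at 0.38 (adjusted p = 1.88e-07 by edgeR), RRP12 and PPAN at 0.34, NOB1 at 0.30, GTPBP4 at 0.19 and DKC1 at 0.18, with URB2 at -0.39 and NCL at -0.14. The doses differ, so extract and dose cannot be told apart here. NCL lost its call without any 1 of 6 libraries (0.0572 to 0.458), PPAN without Aconiti high replicate 2 (0.111) and URB2 without Aconiti high replicate 3 (0.114), and the count was 14 without Aconiti high replicate 1.

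**Figure D5:**
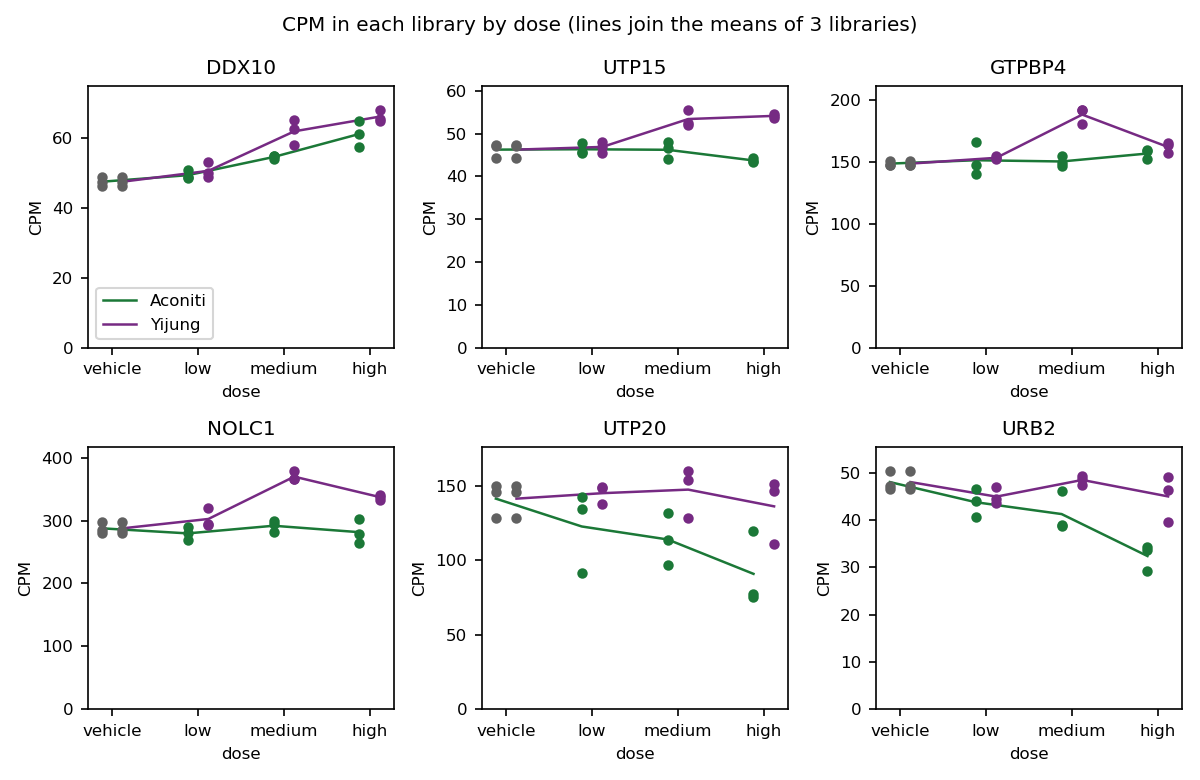
CPM (y axis) of 6 genes in each library at vehicle, low, medium and high dose (x axis) of Aconiti (green) and Yijung (purple), with grey points for the shared vehicle libraries and lines through means of 3. DDX10 is higher at the high dose of both extracts, UTP15 and NOLC1 are higher with Yijung, GTPBP4 is highest at Yijung medium dose, and UTP20 and URB2 are lowest at Aconiti high dose.

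The dose responses of Aconiti and Yijung, each high minus low dose within its own set, were compared in 1 contrast that uses no vehicle library. It gave 0 higher and 3 lower of 48 (6.25%), where 9.34% of all genes were called. The 3 were UTP15, RRS1 and GNL3, whose log2 high minus low values were -0.08, -0.18 and -0.06 for Aconiti and 0.21, 0.19 and 0.18 for Yijung. UTP15 had 44.2, 43.4 and 43.6 CPM in Aconiti high and 47.9, 45.8 and 45.4 CPM in Aconiti low dose. It had 53.6, 54.2 and 54.6 CPM in Yijung high and 48.1, 46.9 and 45.6 CPM in Yijung low dose. Its difference of -0.29 (SE 0.07, adjusted p = 0.00741 by edgeR) was called whichever library of the groups compared was left out. With no filter on low counts its adjusted p was 0.214, and in a fit of the samples compared alone it was above the threshold too. Both of those fits called 0 of the 48 genes. RRS1 (-0.37, SE 0.09, adjusted p = 0.00478) missed the threshold without Aconiti low replicate 3 (0.0525). GNL3 (-0.24, SE 0.08, adjusted p = 0.0367) did so without any of 8 libraries. The count was 1 without Aconiti low replicate 3 and 6 without Aconiti high replicate 1.

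Cimicifugae high dose had 1 member called, lower, where 1.96% of all genes were called, 1.08% higher and 0.880% lower. DDX21 had 377, 377 and 387 CPM in Cimicifugae high dose and 468, 446 and 426 CPM in vehicle, without overlap (log2 fold -0.23, SE 0.06, adjusted p = 0.0316 by edgeR). The call was lost without each of 5 libraries, Vehicle replicates 1 and 2 and all 3 of Cimicifugae high dose (0.0759 to 0.227), and without Citri medium replicate 1 the count was 3. Of the 48 log2 folds 44 lay below 0, with a median of -0.088 and a lowest of -0.26, against 0.005 over all genes. Members took 0.859% ± 0.00515 of counts in Cimicifugae high dose and 0.905% ± 0.00871 in vehicle (SD, n = 3 each). The shared fit with the balance as a covariate called 9 and a fit of the 6 samples 16. The share of all genes called in those fits is not given here, and whether the higher counts are particular to the members was not tested.

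The median over members was below vehicle in all 3 Cimicifugae high libraries, at -0.089, -0.092 and -0.109. Their balance, 0.701 to 0.786, was within the vehicle range. Cimicifugae high against Cimicifugae low dose had 0 calls by edgeR and 1 by DESeq2, with 12 at an unadjusted p under 0.05, where 1.34% of all genes were called, 0.625% higher and 0.718% lower. It had 1 call without Citri medium replicate 1 and 1 without Cimicifugae low replicate 3. Cimicifugae high against Citri high dose had 0 by either tool and 1 at an unadjusted p under 0.05, where 0.689% of all genes were called. Cimicifugae medium and low doses against vehicle had 0 by either tool and 2 each at an unadjusted p under 0.05, where 0.0347% and 0.0116% of all genes were called. These shares of all genes are at the adjusted threshold, so the counts at an unadjusted p have no background beside them.

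No member was called by edgeR or DESeq2 in any Citri, Bupleuri or Banhasasim comparison with vehicle or of high with low dose. For Citri high, medium and low dose 0, 17 and 0 members had an unadjusted p under 0.05, where 0.0463%, 0.0174% and 0.00579% of all genes were called at an adjusted p under 0.05. The 2 thresholds differ. How many of all genes had an unadjusted p under 0.05 is not given here, so the unadjusted counts in this paragraph have no background beside them. For Bupleuri the numbers were 2, 1 and 0, where 0.712% (0.452% higher and 0.261% lower), 0% and 0% of all genes were called. For Banhasasim they were 0 at each dose, where 0.185%, 0% and 0% of all genes were called. High against low dose had 0 at an unadjusted p under 0.05 in each of the 3 extracts, where 0.0232% (Citri), 0.353% (Bupleuri) and 0.127% (Banhasasim) of all genes were called.

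Citri medium dose rested on 1 library that stands apart. Without Citri medium replicate 2 or 3, which leaves replicate 1 with more weight, 11 and 13 members were called, and without replicate 1 none was. Median levels of the 48 genes relative to vehicle were 0.191 in replicate 1 and 0.003 and -0.008 in replicates 2 and 3.

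Bojungikgi-tang had 1 library per dose and so no test. At low, medium and high dose 9, 10 and 4 of the 48 genes lay above the range of the 3 vehicle libraries and 20, 21 and 24 below it, where 24.3%, 25.4% and 25.6% of all genes lay above and 28.8%, 32.3% and 30.7% below. Median differences of log2(CPM + 1) from the vehicle mean were -0.01, -0.015 and -0.05. The lowest and highest were -0.27 (NOP10, 106 CPM) and 0.17 (NCL, 1444 CPM), both at medium dose.

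Taken by gene over the 19 groups of 3 libraries, Yijung medium dose had the highest mean for 26 of the 48 members and Cimicifugae high dose the lowest for 21. Citri medium dose, with its 1 library that stands apart, had the highest mean for 8 and the lowest for 5. Aconiti high dose had the highest mean for 6 and the lowest for 10. Such ranks were not counted over all genes, so they have no background beside them. DDX10 averaged 66.2 ± 1.70 CPM in Yijung high dose, its highest group, and 43.6 CPM in Cimicifugae high dose, its lowest. By relative spread over the 57 libraries the steadiest members were NOP14 (coefficient of variation 5.3%), DDX18 (5.35%) and WDR12 (5.39%), and the most variable were UTP20 (18.2%), NPM3 (16.2%) and NOP10 (16.1%), with exonic lengths of 10024, 928 and 554 bp. The 57 libraries include Citri medium replicate 1, which stands apart in transcript balance and whose part in these spreads was not tested.

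Other genes of the pathway, from lists drawn up by role, were counted beside the members. With Yijung medium dose 5 of 42 other small-subunit factors and 8 of 42 other 60S factors were higher and none lower, where 4.01% of all genes were higher. The leading ones were UTP14A at 0.36, DDX47 at 0.28 and KRR1 at 0.27 for the small subunit, and RSL24D1 at 0.42, EFL1 at 0.40 and GNL2 at 0.35 for the large. None of 13 other RNA polymerase I genes, 11 snoRNP assembly factors, 15 exosome subunits or 79 cytosolic ribosomal protein genes was called by edgeR, with 3, 3, 2 and 1 at an unadjusted p under 0.05. No share of all genes at that unadjusted threshold is given here. MYC itself had 186 ± 9.34 CPM in Yijung medium dose and 141 ± 8.91 CPM in vehicle (SD, n = 3 each; log2 fold 0.40, adjusted p = 4.82e-08 by edgeR). Its network list, 10 genes tested, had 2 higher and 2 lower. DDX47 and RSL24D1 lost their call without Yijung medium replicate 1 (0.0983 and 0.16), and RSL24D1 without Vehicle replicate 1 (0.0558).

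With Yijung high dose 5 of 42 other small-subunit and 5 of 42 other 60S factors were higher and none lower, led by UTP14A (0.28), DDX47 (0.25) and UTP4 (0.23), and by SBDS (0.31), NIFK (0.26) and MAK16 (0.25). Of all genes 3.76% were higher. DDX47, UTP4, SBDS and NIFK lost their call without Yijung high replicate 2 (0.193 to 0.341), and also without 1 or more vehicle libraries (0.0532 to 0.146). Again none of the polymerase, snoRNP assembly, exosome or ribosomal protein genes was called, with 2, 3, 0 and 0 at an unadjusted p under 0.05, likewise without a share of all genes at that threshold. MYC had 177 ± 6.73 CPM in Yijung high dose and 141 ± 8.91 CPM in vehicle (log2 fold 0.33, adjusted p = 3.59e-06 by edgeR). Counts over the rest of its network list are not given here for Yijung high dose.

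With Aconiti high dose, where 17.0% of all genes were higher and 15.7% lower, calls in these lists ran in both directions. Of the genes listed as other small-subunit factors 0 were higher and 11 of 42 lower, led by RRP1B (-0.48), WDR36 (-0.40) and NOP9 (-0.37). RRP1B was placed in this list, although its role may lie on the 60S route. Other 60S factors divided into 10 higher and 9 lower of 42, with WDR74 at 0.58, WDR18 at 0.57 and MDN1 at -0.68. With the transcript balance as a covariate MDN1 was at -0.26, WDR74 at 0.32, WDR36 at -0.21 and NOP9 at -0.17, all still called. Among other RNA polymerase I genes 6 of 13 were lower and none higher, among them UBTF, the upstream binding factor of rDNA, at -0.38 (adjusted p = 9.55e-09 by edgeR). SnoRNP assembly factors had 1 higher (PIH1D1, 0.43) and 4 lower of 11 (SHQ1, -0.43, and NAF1, -0.38, among them), and exosome subunits 2 higher (EXOSC8, 0.59, and EXOSC1, 0.36) and 4 lower of 15 (EXOSC9, -0.45, the lowest). The covariate gave 0.22 for PIH1D1, -0.25 for NAF1, 0.39 for EXOSC8 and 0.16 for EXOSC1, also still called.

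Of the snoRNA host genes, whose introns carry snoRNAs, 8 of 12 were higher with Aconiti high dose and none lower, with ZFAS1 at 1.54, GAS5 at 1.26 and SNHG8 at 1.17. Ribosomal protein genes were higher in 25 of 79 and lower in none, led by RPL13 at 0.67, RPL12 at 0.58 and RPLP0 at 0.53, where 17.0% of all genes were higher. With the transcript balance as a covariate these 3 were at 0.38, 0.35 and 0.24, still called. Of 10 p53 response genes 8 were higher, with GDF15 at 1.76, BBC3 at 1.47 and CDKN1A at 0.89. MYC had 186 ± 3.02 CPM in Aconiti high dose and 141 ± 8.91 CPM in vehicle (log2 fold 0.40, adjusted p = 1.28e-08 by edgeR). With the transcript balance as a covariate, MXI1, MYC and MLX of the network list were at 0.5, 0.39 and 0.18, all still called. How many genes of that list were called in each direction with Aconiti high dose is not given here. WDR36, NOP9, MDN1, PIH1D1, EXOSC1 and RPLP0 lost their call without Aconiti high replicate 2 (0.057 to 0.223). NOP9, MDN1 and EXOSC1 also lost it without Aconiti high replicate 3, Vehicle replicate 1 or Vehicle replicate 2 (0.0501 to 0.197). The comparisons of Aconiti and Yijung with vehicle share the vehicle libraries, so their values are given side by side.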

How the data were processed

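Total RNA of A549 cells was sequenced. The submitters' processing notes name RSEM (1.3.3), STAR (2.7.3a), Trim Galore (0.6.5), FastQC (0.11.9) and the build GRCh38; the annotation release is not given in the sources used here. The authors deposited expected counts per gene and sample, estimates that need not be whole (9.37% of values were not), and these were rounded to whole numbers. Of 269 sample columns, 60 were tied to a sample by name and used, and 209 were not used. GENCODE 29 held 57055 of the 60675 identifiers and gave exonic lengths and positions. Total counts were 17793654 to 30188210 per library.

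One edgeR 4.0.16 quasi-likelihood model (R 4.3.3, TMM factors, filterByExpr by group) was fitted to 57 libraries in 19 groups of 3, which share one estimate of the spread with 38 residual degrees of freedom. P-values were adjusted by Benjamini-Hochberg over 17268 genes, and called means an adjusted p under 0.05. Shares of all genes called use that threshold, also where they stand near counts at an unadjusted p under 0.05. Bojungikgi-tang, with 1 library per dose, stayed outside the fit. On counts simulated for Yijung medium against vehicle over 17111 genes, 38 of 100 genes changed 1.25-fold and 84 of 100 changed 1.5-fold were called.

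Alternatives were RLE factors, no filter on low counts, DESeq2 1.42.0, a replicate block, a fit restricted to the libraries being compared, the balance of long against short transcripts as a covariate, removal of mitochondrial genes, and leaving out each library. A library left out was read only in comparisons that use its group, except Citri medium replicate 1, which was left out of every comparison. A fit without Aconiti high and medium doses, and the comparisons of Yijung medium with Yijung low and with Banhasasim medium dose, were added after seeing the data. Replicate numbers were taken to pair samples where all 3 correlations of same-numbered deviations exceeded 0.1, which held for Yijung medium against Yijung low dose (0.70, 0.272 and 0.358).

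The members and the other lists were chosen with earlier results of these data known. Every called member was named where at most 12 were called, and otherwise the 3 per role group with the largest absolute fold; values per library went to the member of each role group with the largest absolute fold in Aconiti high and in Yijung high dose against vehicle. Of other lists, up to 3 called genes each were named. Members named or given by library beyond this, including those in the dose plot, were chosen after their values were seen. Of the 48 members, 11 overlap another gene on their own strand and 25 one on the opposite strand, and whether counting used strand is not given in the sources used here.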

Additional observations from a re-analysis of the deposited data

Results flagged for a closer look

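For 3 of the 48 genes the high minus low dose change differed between Aconiti and Yijung when the difference itself was tested in 1 contrast with edgeR's quasi-likelihood test. These 6.25% stand beside the 9.34% of all genes called in that contrast, and neither the fit with no filter on low counts nor that of the samples compared alone called any of the 48. UTP15 differed by -0.29 (SE 0.07, adjusted p = 0.00741), with -0.08 for Aconiti and 0.21 for Yijung. Over the alternatives its difference was -0.30 to -0.26 and its adjusted p 0.000556 to 0.214. RRS1 differed by -0.37 (SE 0.09, adjusted p = 0.00478), with -0.18 for Aconiti and 0.19 for Yijung. Over the alternatives this was -0.44 to -0.29, with an adjusted p of 2.62e-05 to 0.0754. GNL3 differed by -0.24 (SE 0.08, adjusted p = 0.0367), with -0.06 for Aconiti and 0.18 for Yijung, and over the alternatives it was -0.27 to -0.15, with an adjusted p of 0.00867 to 0.387. The high doses of the 2 extracts were 360 and 500 µg/mL and their low doses 14.4 and 20 µg/mL, and the extracts came from different sets.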

How the results depend on the processing

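No count and no gene named as called turned its direction in the alternatives run, but medians over the members near 0 did. Genes named without a call were not followed singly in the alternatives. With the transcript balance as a covariate 8 of 32 medians changed sign, among them that of Aconiti high against vehicle (-0.042, against 0.038), and leaving out 1 library turned 12. None of the medians that turned was over 0.062 in size as reported. The covariate moved 13 medians by more than the spread between replicates, and the fit with no filter on low counts moved 1. RLE factors moved no count by over 1.5 times, and neither did the replicate block, under which Aconiti high against vehicle had 14 calls, Yijung medium 18 and Yijung high 7, and IMP4 lost its call in Yijung high against Banhasasim high dose (adjusted p 0.0523 by edgeR). In the comparison taken as paired, Yijung medium against low, the block gave 12. The counts that follow are of members, without the share of all genes called in the same fit. Whether a changed count is particular to the members was not tested. DESeq2 called 2 members in Cimicifugae high against vehicle, 1 in Cimicifugae high against low, 10 in Yijung high against vehicle and 6 in Yijung high against low. With the transcript balance as a covariate, against vehicle the counts were 9 (Cimicifugae high), 1 (Bupleuri high), 23 (Aconiti high), 2 (Aconiti medium), 17 (Yijung high) and 31 (Yijung medium). High against low gave 4 (Cimicifugae), 22 (Aconiti) and 16 (Yijung), and Yijung medium against low 32. Aconiti high gave 12 against medium and 21 against Bupleuri high, Yijung high 19 and Yijung medium 32 against Banhasasim at the same dose, Cimicifugae high 2 against Citri high, and the difference of dose responses 16. With mitochondrial genes removed, Cimicifugae high against low had 1 and Yijung high against Banhasasim high 4, and without the Aconiti high and medium groups Yijung high against Banhasasim high had 3. With no filter on low counts, against vehicle the counts were 0 (Cimicifugae high), 0 (Aconiti medium), 1 (Yijung high) and 9 (Yijung medium), and high against low gave 3 (Aconiti) and 1 (Yijung). That fit gave 0 for Aconiti high against medium, 0 for Yijung high against medium, 5 for Aconiti against Bupleuri high, 1 for Yijung against Banhasasim high, 0 for the difference of dose responses, 4 for Yijung medium against low and 8 for Yijung against Banhasasim medium. It tests more genes. With only the samples compared, against vehicle the counts were 16 (Cimicifugae high), 4 (Bupleuri high), 8 (Aconiti high), 2 (Aconiti medium) and 1 (Yijung high), and high against low gave 2 (Aconiti) and 1 (Yijung). The same fits gave 0 for Aconiti high against medium, 0 for Yijung high against medium, 5 for Aconiti against Bupleuri high, 1 for Yijung against Banhasasim high, 8 for Cimicifugae against Citri high, 0 for the difference and 1 for Yijung medium against low. These fits have fewer residual degrees of freedom. Counts rose in some comparisons and fell in others, and the cause was not tested.

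Leaving out 1 library gave ranges of 5 to 19 (Aconiti high), 0 to 1 (Aconiti medium), 3 to 13 (Yijung high), 12 to 23 (Yijung medium), 0 to 3 (Cimicifugae high) and 0 to 13 (Citri medium) against vehicle. High against low ranged over 3 to 12 (Aconiti), 1 to 9 (Yijung) and 0 to 1 (Cimicifugae), and Yijung medium against low over 6 to 18. The others were 1 to 6 (Aconiti high against medium), 0 to 1 (Yijung high against medium), 7 to 14 (Aconiti against Bupleuri high), 1 to 10 (Yijung against Banhasasim high), 10 to 19 (Yijung against Banhasasim medium) and 1 to 6 (difference of dose responses). As above, these ranges are of members, without the share of all genes called in the same fits. Whether they are particular to the members was not tested.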
